A study of Homo sapiens with 12 samples.

Results

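The microRNAs described here are the mature arms of miR-193a, miR-193b, miR-365a and miR-365b, which come from 4 hairpins at a pair of human loci. They were taken by name from the deposited count table, every arm included, which gave 8 of its 1906 mature microRNA names. HGC-27 and AGS, both established human gastric cancer cell lines, had been grown in medium with 10% fetal bovine serum. Each line received either SAHA (vorinostat, an inhibitor of histone deacetylases) at 5 µM or its solvent DMSO, for 24 h. There were 3 libraries in each of the 4 groups, made from total RNA with a small RNA kit and sequenced. The labels do not say whether replicates were separate cultures, so every p-value reflects the scatter of these libraries alone, and that scatter may be technical.

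A microRNA hairpin gives a 5p and a 3p arm, and the arm that is loaded into Argonaute guides it to messenger RNAs through its seed, bases 2 to 8. miR-193a-3p and miR-193b-3p are known for repressing MCL1, an anti-apoptotic protein, KIT, a receptor tyrosine kinase, and CCND1 (cyclin D1), and are often described as growth-restraining in tumours. miR-365 has likewise been reported to target CCND1, and miR-193b with miR-365 is known from brown fat differentiation.

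The mature sequences, from RefSeq (GRCh38.p14), are shown because they decide which locus a read can be assigned to and which arms share targets. All 8 names matched the RefSeq table. Each sequence is written 5′ to 3′ with the seed in capitals.
miR-193a-3p: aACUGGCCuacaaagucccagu
miR-193b-3p: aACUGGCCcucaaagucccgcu
miR-193a-5p: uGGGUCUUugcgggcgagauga
miR-193b-5p: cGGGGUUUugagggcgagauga
miR-365a-3p: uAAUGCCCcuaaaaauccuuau
miR-365b-3p: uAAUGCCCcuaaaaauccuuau
miR-365a-5p: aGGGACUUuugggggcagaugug
miR-365b-5p: aGGGACUUucaggggcagcugu

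The 3p arms of miR-193 share the seed ACUGGCC and differ at 4 of 22 positions, U9C, A10U, A20G and G21C, counted from 1 at the 5′ end with the base of miR-193a first. Their 5p arms also differ at 4 positions (U1C, U5G, C6U and C11A), but there the differences reach into the seed, GGGUCUU in miR-193a-5p and GGGGUUU in miR-193b-5p. The 5p arms of miR-365 share the seed GGGACUU and differ at 3 of the 22 positions compared, U10C, G11A and A19C from miR-365a to miR-365b. The 3p arms of miR-365 are identical over all 22 bases. A read of that sequence cannot be assigned to a locus: the table listed equal counts for both names in 9 libraries and counts at most 4 apart in the other 3. The pair is therefore described below as 1 measurement, miR-365-3p, given by the miR-365a-3p entry, but counts and medians over the 8 names hold both entries. No other microRNA name in the table carries any of the 5 seeds.

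The hairpins lie as a pair of a miR-193 and a miR-365 gene at each locus, all on the plus strand. On chromosome 16, MIR193B (chr16:14303967-14304049) and MIR365A (chr16:14309285-14309371) are 5235 bases apart. Both lie in introns of the long non-coding RNA gene MIR193BHG by GENCODE 29, at 2.586 and 7.904 kb from its RefSeq start. On chromosome 17, MIR193A (chr17:31559996-31560083) and MIR365B (chr17:31575411-31575521) are 15327 bases apart, with the hairpin MIR4725 (chr17:31575269-31575358) between them. MIR365B lies in the long non-coding RNA gene MIR365BHG and partly overlaps its last exon, whereas MIR193A lies upstream of that gene's start and overlaps no other gene of the annotation. Of the 11 other microRNA names of the table within 1 Mb of these hairpins, 5 had any count and none passed the filter, the highest total over the 12 libraries being 49.

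The promoter windows of both host genes are shown because these genes span 3 of the 4 hairpins. They run from 250 bases before to 50 after the RefSeq start (GRCh38.p14, plus strand), with motif matches in capitals.
MIR193BHG, chr16:14301131-14301430: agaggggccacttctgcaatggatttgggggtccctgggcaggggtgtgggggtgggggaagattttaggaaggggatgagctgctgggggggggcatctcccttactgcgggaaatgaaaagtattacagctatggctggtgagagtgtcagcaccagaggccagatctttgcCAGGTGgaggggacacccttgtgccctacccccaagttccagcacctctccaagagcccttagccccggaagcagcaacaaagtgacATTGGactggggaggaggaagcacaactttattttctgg
MIR365BHG, chr17:31570892-31571191: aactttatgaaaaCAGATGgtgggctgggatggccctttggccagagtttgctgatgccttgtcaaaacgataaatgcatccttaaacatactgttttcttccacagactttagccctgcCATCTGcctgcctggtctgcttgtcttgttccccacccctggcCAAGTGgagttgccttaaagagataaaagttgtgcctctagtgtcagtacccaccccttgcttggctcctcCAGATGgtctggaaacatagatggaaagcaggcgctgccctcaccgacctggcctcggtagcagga
The first window holds 2 CpG dinucleotides and the second 4, against a median of 14 over all 35116 promoter windows of the table. Searched on both strands, the E-box CANNTG matched once in the MIR193BHG window and at 4 places in the MIR365BHG window, and 68.7% of all windows hold it. CCAAT matched once, on the reverse strand of the MIR193BHG window (34.6% of all windows). The GC box GGGCGG (44.95% of all windows) and TATAAA (11.5%) matched in neither. A match describes the letters only.

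Levels are CPM, each count divided by the TMM-scaled total, in its library, of the microRNAs that passed the low-count filter. All these arms are 22 or 23 bases long. How efficiently each sequence enters a library was not measured, so comparisons between different arms are of counts only. Total counts per library lay between 2665109 and 6525388, and the 8 names held 5955 to 17496 counts of each library, 0.225% to 0.416% of its annotated microRNA counts. All 8 were listed in every library and all passed the low-count filter, with 608 microRNAs tested. HGC-27 SAHA 2 stood apart, with a root mean square difference of 1.19 in log2 CPM from the other 2 libraries of its group, against 0.489 to 0.858 for the other 11. The epithelial marker list (6 of 6 listed in every group) summed to between 228 and 734 CPM over the 12 libraries. The fibroblast and smooth muscle list (4 of 4 listed) ranged from 78.9 to 1545 CPM in HGC-27 and from 528 to 3478 CPM in AGS. The 5 blood cell markers ranged from 59.2 to 502 CPM, with miR-223-3p at 0 in AGS DMSO. The endothelial marker miR-126-3p was at 866 to 1144 CPM in HGC-27 DMSO, 1824 to 2635 in HGC-27 SAHA, 1207 to 2226 in AGS DMSO and 2502 to 3730 in AGS SAHA. Their part in the results below was not tested, and in such bulk samples fewer cells of a type and less RNA per cell cannot be told apart.

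In each DMSO group the arms ranked by mean CPM as miR-193b-3p, miR-365-3p, miR-365a-5p, miR-193a-5p, miR-193b-5p, miR-193a-3p and miR-365b-5p, and no neighbours in that order overlapped between libraries. With SAHA miR-193a-3p stood above miR-193b-5p in both lines, but the libraries of these 2 arms overlapped, and the rest of the order was the same. Ordered by level among the 608 microRNAs, miR-193b-3p stood at place 71 in HGC-27 DMSO and 70 in AGS DMSO, and miR-365b-5p at place 349 and 358. The miR-193 hairpins differed in which arm was abundant. The 5p arm made up 3.04% ± 0.448 (SD, n = 3) of the miR-193b hairpin's counts in HGC-27 DMSO and 3.71% ± 1.01 in AGS DMSO. The miR-193a hairpin was the opposite, with 76.2% ± 4.70 of its counts on the 5p arm in HGC-27 DMSO and 71.0% ± 9.63 in AGS DMSO.

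Which locus gave more counts differed between the pairs of arms. miR-193b-3p made up 98.5% ± 0.135 of the counts of both miR-193 3p arms in HGC-27 DMSO and 97.7% ± 0.817 in AGS DMSO. miR-365a-5p made up 93.2% ± 1.201 of the counts of both miR-365 5p arms in HGC-27 DMSO and 93.7% ± 1.00 in AGS DMSO. Between the miR-193 5p arms the chromosome 17 locus was the higher, with miR-193a-5p at 62.4 ± 8.90 CPM and miR-193b-5p at 38.5 ± 6.64 CPM in HGC-27 DMSO. In AGS DMSO they were at 82.3 ± 12.4 and 54.9 ± 10.4 CPM. The miR-365 5p arms together made up 17.6% ± 0.541 of all miR-365 counts in HGC-27 DMSO and 27.6% ± 8.57 in AGS DMSO. The shared 3p sequence could not be divided between the loci.

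**Figure D1:**
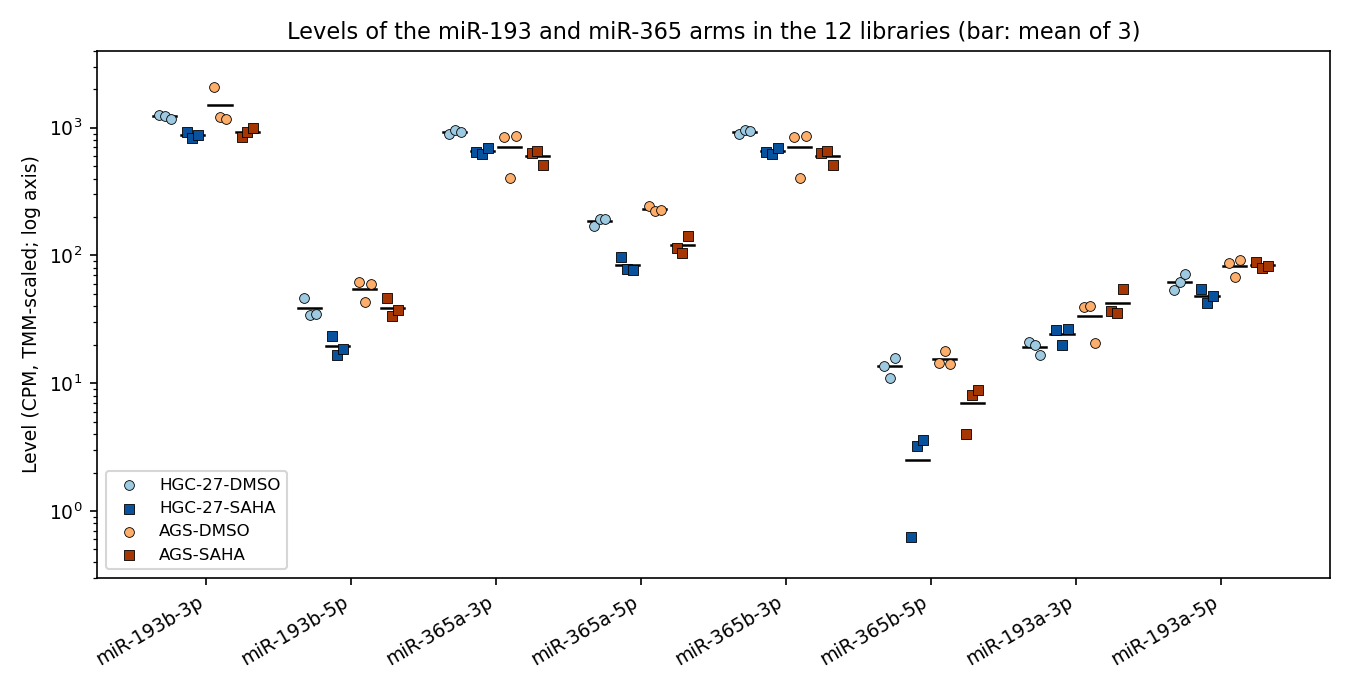
Level of each arm in every library (TMM-scaled CPM, log axis), with each point 1 library and each bar the mean of 3. miR-193b-3p and miR-365-3p lie between 404 and 2083 CPM, and the 3 HGC-27 SAHA points of miR-365b-5p lie below all others, the lowest at 0.625 CPM.

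With SAHA miR-365a-5p fell in both lines, the 1 arm called in each, to 0.453 times its DMSO level in HGC-27 and 0.521 times in AGS. In HGC-27 miR-193b-5p and miR-365b-5p also fell, and in AGS miR-193b-3p fell. None of the arms was called higher in either line. In HGC-27 3 of the 8 names were called, all lower, where 40.8% of all 608 microRNAs were called and 19.1% were called lower. In AGS 2 of the 8 were called, both lower, where 26.5% were called and 11.5% were called lower. The median log2 fold change over the 8 names was -0.51 in HGC-27 and -0.36 in AGS, beside 0.08 over all microRNAs tested in each line. With the identical 3p arms entered once, the medians were -0.51 and -0.49. With plain library totals in place of TMM the log2 fold changes of all microRNAs shifted upward by a median of 0.11 in HGC-27 and 0.19 in AGS. The medians of the 8 names were then -0.39 and -0.17, and those of all microRNAs 0.19 and 0.26.

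miR-365a-5p, the less abundant arm of the chromosome 16 miR-365 hairpin, stood at 171, 192 and 192 CPM in the HGC-27 DMSO libraries and at 97.2, 77.9 and 76.8 CPM with SAHA. The lowest DMSO library lay well above the highest SAHA library. The log2 fold change was -1.14 (SE 0.14, 95% interval -1.45 to -0.84, adjusted p = 0.000129 by edgeR's quasi-likelihood test). In AGS the arm was at 244, 224 and 225 CPM with DMSO and at 114, 105 and 142 CPM with SAHA. Here too the groups did not overlap, and the log2 fold change was -0.94 (SE 0.14, interval -1.24 to -0.64, adjusted p = 0.000675). It was the single name of the 8 among the 53 microRNAs called lower in both lines.

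miR-365b-5p, the corresponding arm from chromosome 17, was scarce. It held 56, 44 and 82 counts in HGC-27 DMSO and 2, 9 and 16 counts in HGC-27 SAHA, or 13.7, 11.05 and 15.8 CPM against 0.625, 3.23 and 3.63 CPM. All SAHA libraries lay below all DMSO libraries, and the log2 fold change was -2.41 (SE 0.49, interval -3.48 to -1.34, adjusted p = 0.0027). Without HGC-27 SAHA 1, the library with 2 counts, it was -1.94 (adjusted p = 0.0034). AGS libraries held 52, 54 and 30 counts with DMSO and 10, 25 and 27 with SAHA, or 14.5, 17.99 and 14.04 CPM against 4.02, 8.04 and 8.79 CPM. The AGS groups did not overlap either, but the log2 fold change of -1.15 (SE 0.46, interval -2.15 to -0.14) did not pass the test (adjusted p = 0.0962). It passed with DESeq2 (adjusted p = 0.0348), in a fit of the AGS groups alone (adjusted p = 0.0394) and with predicted entries included (adjusted p = 0.0469).

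miR-193b-3p, the abundant arm of the chromosome 16 miR-193 hairpin, was at 1255, 1243 and 1176 CPM in HGC-27 DMSO and at 927, 837 and 874 CPM in HGC-27 SAHA. The groups did not overlap. The log2 fold change of -0.48 (SE 0.19, interval -0.89 to -0.07) missed the threshold (adjusted p = 0.0622). It passed in a fit of the HGC-27 libraries alone (adjusted p = 0.0021) and with DESeq2 (adjusted p = 0.026). In AGS the arm was at 2083, 1217 and 1177 CPM with DMSO and 845, 924 and 989 CPM with SAHA. AGS DMSO 1 was far above the other libraries, and all 3 SAHA libraries lay below the lowest DMSO library. The log2 fold change was -0.70 (SE 0.19, interval -1.11 to -0.29, adjusted p = 0.019). Without AGS DMSO 1 it was -0.41 (adjusted p = 0.0251). The call was lost without AGS SAHA 2 (adjusted p = 0.051), with plain totals (adjusted p = 0.098), in a fit of the AGS groups alone (adjusted p = 0.0579) and on the authors' scaled table (limma, adjusted p = 0.103).

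miR-193b-5p, the minor arm of the same hairpin, was at 46.2, 34.4 and 34.9 CPM in HGC-27 DMSO and 23.4, 16.5 and 18.6 CPM with SAHA. Each SAHA library lay below each DMSO library, and the log2 fold change was -0.98 (SE 0.21, interval -1.45 to -0.51, adjusted p = 0.0042). The AGS levels were 61.8, 43.0 and 59.9 CPM with DMSO and 46.2, 33.8 and 37.1 CPM with SAHA. The groups overlapped, through AGS DMSO 2 and AGS SAHA 1, and the log2 fold change was -0.49 (SE 0.21, interval -0.95 to -0.03, adjusted p = 0.116). Without AGS DMSO 2 it was -0.73 (adjusted p = 0.0377), and with predicted entries included -0.71 (adjusted p = 0.0314).

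miR-365-3p, the shared abundant arm, was at 893, 958 and 933 CPM in HGC-27 DMSO and at 648, 623 and 690.4 CPM in HGC-27 SAHA. The groups did not overlap, with a log2 fold change of -0.51 (SE 0.23, interval -1.01 to 0.00) and an adjusted p of 0.106. It was called in a fit of the HGC-27 groups alone (adjusted p = 0.0029) and without the low-count filter (adjusted p = 0.0354). The AGS libraries stood at 841, 404 and 859 CPM with DMSO and 629, 661 and 513 CPM with SAHA. AGS DMSO 2 lay below every SAHA library while the other 2 DMSO libraries lay above them all. The log2 fold change was -0.22 (interval -0.73 to 0.28, adjusted p = 0.507), and without AGS DMSO 2 it was -0.59 (adjusted p = 0.0055).

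The miR-193a arms, from chromosome 17, were not called in either line. miR-193a-3p, which shares its seed with miR-193b-3p, was at 21.1, 19.8 and 16.6 CPM in HGC-27 DMSO and 26.2, 19.7 and 26.5 CPM with SAHA. AGS levels were 39.8, 40.3 and 20.6 CPM with DMSO and 36.9, 35.7 and 55.0 CPM with SAHA. The groups overlapped in both lines, and the log2 fold change was 0.34 in HGC-27 (interval -0.27 to 0.94, adjusted p = 0.366) and 0.34 in AGS (adjusted p = 0.413). The AGS value was 0.09 without AGS DMSO 3 and likewise 0.09 without AGS SAHA 3. miR-193a-5p, the more abundant arm of that hairpin, was at 62.4 ± 8.90 CPM in HGC-27 DMSO and 48.5 ± 6.18 CPM with SAHA, and at 82.3 ± 12.4 and 83.9 ± 4.42 CPM in AGS. Its log2 fold changes were -0.36 (adjusted p = 0.0879) and 0.03 (adjusted p = 0.909), with overlapping groups in both lines. In HGC-27 miR-193a-5p passed with upper-quartile scaling (-0.49, adjusted p = 0.0365) and with predicted entries included (-0.47, adjusted p = 0.0411).

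Counted over all 8 names, the SAHA and DMSO groups did not overlap for 6 in HGC-27, where this held for 57.9% of all microRNAs tested, and for 3 in AGS, where it held for 38.7%. The 6 include both names of the identical miR-365-3p. Without HGC-27 SAHA 2, the same number of names, 3, was called in HGC-27, with miR-365a-5p at -1.04, miR-193b-5p at -0.82 and miR-365b-5p at -2.51 on the log2 scale.

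**Figure D2:**
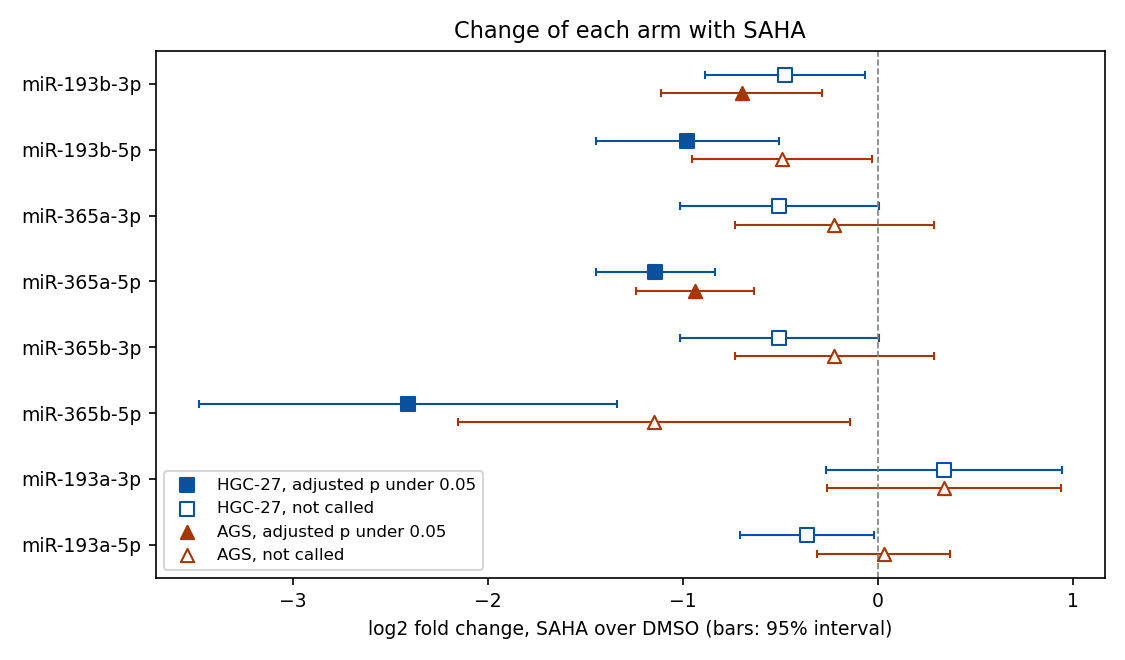
Log2 fold change of SAHA over DMSO for each arm in HGC-27 and AGS, with 95% intervals from the edgeR fit. The intervals of miR-365a-5p lie below 0 in both lines, at -1.14 and -0.94, and those of miR-193a-3p span 0 in both.

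Whether the arms responded differently in the 2 lines was tested directly as an interaction. None of the 8 names was called by edgeR's quasi-likelihood test or by DESeq2, and 0 had an unadjusted p under 0.05 with edgeR; 1.81% of all microRNAs were called. The farthest from 0 was miR-365b-5p, whose log2 fold change was 1.26 higher in AGS than in HGC-27 (interval -0.18 to 2.71, adjusted p = 0.356). miR-193b-5p differed by 0.49 (interval -0.17 to 1.14) and miR-365a-5p by 0.20 (interval -0.22 to 0.63). For miR-193b-3p, called in AGS and not in HGC-27, the difference was -0.22 (interval -0.80 to 0.36). miR-365-3p differed by 0.28 (interval -0.44 to 1.00) and miR-193a-3p by 0.0008 (interval -1.26 to 1.26). These intervals still allow sizeable differences, for abundant as well as scarcer arms.

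**Figure D3:**
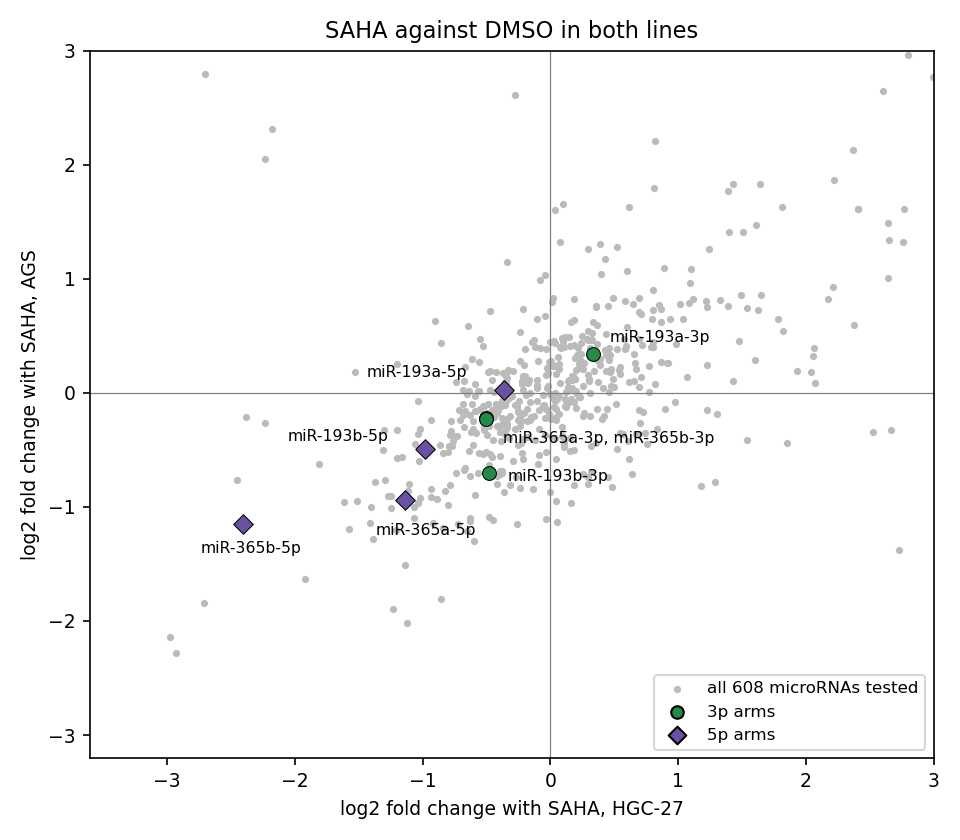
Log2 fold change with SAHA in HGC-27 (x axis) against AGS (y axis) for the microRNAs tested, with the miR-193 and miR-365 arms marked; 67 of the 608 microRNAs lie outside the axes. Both comparisons use separate libraries, and miR-365b-5p is the arm farthest to the left, at -2.41 in HGC-27 and -1.15 in AGS.

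The ratio of arms from 1 hairpin within a library does not depend on library scaling. A total of 8 log2 ratios were computed from the counts with 0.5 added to each, and compared between SAHA and DMSO by an exact two-sided permutation test within lines. The test has 400 arrangements and a smallest possible p of 0.005, and p-values were adjusted over the 8 ratios. For miR-365a the 3p count was 5.21, 4.99 and 4.85 times the 5p count in HGC-27 DMSO and 6.66, 7.98 and 8.98 times in HGC-27 SAHA. The AGS factors were 3.44, 1.81 and 3.81 times with DMSO and 5.52, 6.26 and 3.603 times with SAHA. The ratio was higher with SAHA by 0.64 on the log2 scale in HGC-27 and 0.80 in AGS, a mean of 0.72 (exact permutation p = 0.01, adjusted p = 0.024). The groups separated in HGC-27 and overlapped in AGS, where the difference was 0.46 without AGS DMSO 2. Because the 3p count pools both loci, this ratio mixes a change of arm with any change between loci.

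For miR-365b the 3p to 5p ratio was higher with SAHA by 2.14 in HGC-27 and 1.05 in AGS on the log2 scale (exact permutation p = 0.015, adjusted p = 0.024), again with the pooled 3p count. Without HGC-27 SAHA 1 the HGC-27 difference was 1.42. The AGS difference was 0.58 without AGS DMSO 2 and 0.67 without AGS SAHA 1. The ratio of miR-193a-3p to miR-193a-5p was higher by 0.69 in HGC-27 and 0.34 in AGS but did not pass (exact permutation p = 0.07, adjusted p = 0.08). Its AGS difference ranged from -0.06 without AGS DMSO 3 to 0.63 without AGS DMSO 2. For miR-193b, whose arms belong to 1 hairpin only, the ratio was higher with SAHA by 0.50 in HGC-27 and lower in AGS, at -0.16. The mean of 0.17 did not pass (exact permutation p = 0.395, adjusted p = 0.395), and the difference between the lines was not tested. The AGS value ranged from -0.38 without AGS DMSO 3 to 0.02 without AGS SAHA 1.

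Cluster partners were compared in the same way, using arms that identify their locus. For the chromosome 16 pair that meant a 3p arm over a 5p arm, so its ratio mixes a change of arm with any change between partners. The 5p arms of that pair were not compared as a ratio. On chromosome 16, miR-193b-3p was 7.32, 6.47 and 6.12 times miR-365a-5p in HGC-27 DMSO and 9.53, 10.7 and 11.4 times in HGC-27 SAHA. In AGS it was 8.51, 5.44 and 5.22 times with DMSO and 7.42, 8.75 and 6.94 times with SAHA. The HGC-27 groups separated, and the AGS groups overlapped through AGS DMSO 1. The mean difference was 0.48 on the log2 scale (exact permutation p = 0.015, adjusted p = 0.024), from 0.67 in HGC-27 and 0.30 in AGS. The AGS difference was 0.52 without AGS DMSO 1 and 0.17 without AGS DMSO 3.

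On chromosome 17, miR-193a-5p was 3.90, 5.52 and 4.52 times miR-365b-5p in HGC-27 DMSO and 70.6, 12.6 and 12.8 times in HGC-27 SAHA. For AGS the factors were 5.95, 3.77 and 6.44 times with DMSO and 21.1, 9.78 and 9.29 times with SAHA. Every SAHA library lay above every DMSO library of its line, and the mean difference was 1.77 on the log2 scale (exact permutation p = 0.005, the smallest possible, adjusted p = 0.02). The value of 70.6 comes from the library with 2 counts of miR-365b-5p, HGC-27 SAHA 1, without which the mean difference was 1.35.

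A comparison of the loci, added after the counts were seen, set the paralogous arms against each other. miR-193b-3p was 59.1, 62.3 and 70.5 times miR-193a-3p in HGC-27 DMSO and 35.1, 42.0 and 32.8 times in HGC-27 SAHA. In AGS it was 52.1, 30.1 and 56.5 times with DMSO and 22.8, 25.8 and 17.9 times with SAHA. The ratio was lower in every SAHA library than in any DMSO library of its line. The log2 ratio fell by 0.81 in HGC-27 and 1.02 in AGS, a mean of -0.92 (exact permutation p = 0.005, adjusted p = 0.02). The share of miR-193b-3p among both 3p arms went from 98.5% ± 0.135 to 97.3% ± 0.329 in HGC-27 and from 97.7% ± 0.817 to 95.6% ± 0.798 in AGS.

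Between the miR-365 5p arms, the ratio of miR-365a-5p to miR-365b-5p was higher with SAHA by 1.504 in HGC-27 and 0.26 in AGS on the log2 scale. This did not pass after adjustment (exact permutation p = 0.045, adjusted p = 0.06). Without HGC-27 SAHA 1 the mean of 0.88 was 0.46, and the AGS difference was -0.05 without AGS SAHA 1. The share of miR-365a-5p among both 5p arms was 93.2% ± 1.201 and 97.0% ± 2.10 in HGC-27 without and with SAHA, and 93.7% ± 1.00 and 94.6% ± 1.86 in AGS.

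**Figure D4:**
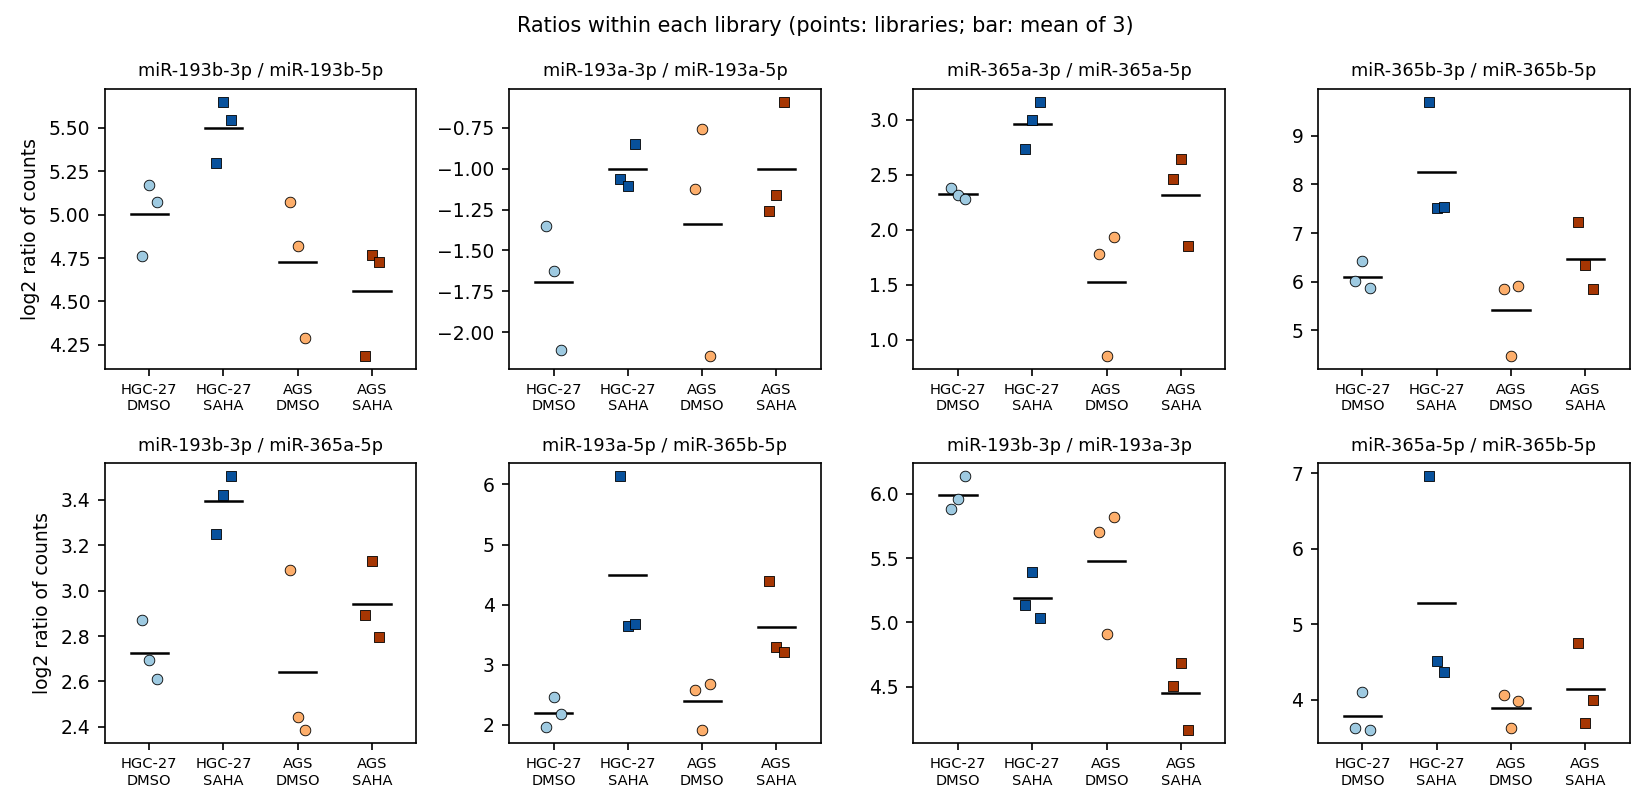
Log2 ratio of counts within each library for the 8 pairs of arms, by group, with each point 1 library and each bar the mean of 3. The ratio of miR-193a-5p to miR-365b-5p is higher, and that of miR-193b-3p to miR-193a-3p lower, in every SAHA library than in any DMSO library of the same line.

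Between the lines under DMSO, the levels of most of these arms did not differ past the threshold. miR-193a-3p was called higher in AGS, at 33.6 ± 11.2 CPM against 19.2 ± 2.34 CPM in HGC-27, a log2 difference of 0.81 (interval 0.21 to 1.42, adjusted p = 0.0316), although the groups overlapped. It was the 1 name called of 8, where 44.6% of all microRNAs were called and 24.5% were called higher in AGS, and the groups did not overlap for 3 of 8, where 55.3% of all did not. The call was lost without AGS DMSO 1 (adjusted p = 0.135), AGS DMSO 2 (0.0742), HGC-27 DMSO 1 (0.0695), HGC-27 DMSO 2 (0.0879) or HGC-27 DMSO 3 (0.137). miR-193a-5p (0.40, adjusted p = 0.0566), miR-193b-5p (0.51, adjusted p = 0.0657) and miR-365a-5p (0.32, adjusted p = 0.0766) had positive log2 differences that missed the threshold. All 3 were called without AGS DMSO 2, with adjusted p-values of 0.0126, 0.0244 and 0.0485. miR-365-3p was at -0.40 (interval -0.91 to 0.10), and at -0.07 without AGS DMSO 2. miR-193b-3p was at 0.29 (interval -0.13 to 0.70), and at -0.06 without AGS DMSO 1.

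Under SAHA, 5 of the 8 names were called higher in AGS than in HGC-27, where 42.8% of all microRNAs were called and 22.9% were called higher in AGS. They were both miR-193a arms, miR-193b-5p, miR-365a-5p and miR-365b-5p, and for the same 5 the groups did not overlap, where this held for 54.1% of all. This comparison shares its libraries with the SAHA comparisons above. miR-193b-5p was at 39.0 ± 6.43 CPM in AGS and 19.5 ± 3.56 CPM in HGC-27, a log2 difference of 1.00 (interval 0.53 to 1.47, adjusted p = 0.0032). miR-193a-5p differed by 0.79 (interval 0.45 to 1.13, adjusted p = 0.002), and these were the 2 calls that held whichever library was left out.

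The other 3 calls under SAHA each depended on single libraries. miR-193a-3p (0.81, adjusted p = 0.0324) was no longer called without any 1 of the 6 libraries, with adjusted p-values of 0.0546 to 0.207. miR-365a-5p (0.52, adjusted p = 0.01) lost its call without AGS SAHA 3 (0.0998), HGC-27 SAHA 3 (0.0871) or HGC-27 SAHA 2 (0.0745). miR-365b-5p (1.46, adjusted p = 0.0324) lost it without HGC-27 SAHA 1 (0.93, adjusted p = 0.0752), AGS SAHA 2 (0.106) or AGS SAHA 3 (0.132). The abundant 3p arms were nearer to each other between the lines, with log2 differences of 0.06 (interval -0.35 to 0.47) for miR-193b-3p and -0.12 (interval -0.63 to 0.39) for miR-365-3p.

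Other microRNAs reported to target CCND1, the cyclin D1 gene, were taken as a list of 13, all of them tested. Counted as calls, 6 of the 13 fell and 2 rose in HGC-27, with a median log2 fold change of -0.35. There 40.8% of all microRNAs were called, 19.1% were called lower, and the median was 0.08. In AGS 4 fell and 1 rose, with a median of -0.44. There 26.5% of all were called, 11.5% were called lower, and the median was 0.08. With plain totals 4 fell and 2 rose in HGC-27, and the AGS counts were the same. Over all microRNAs, plain totals gave fewer calls lower and more calls higher in each line. Those splits are given at the end. The most abundant were miR-20a-5p and miR-17-5p, both of the miR-17 to miR-92a cluster, and let-7b-5p, of the let-7 family. miR-20a-5p fell by 0.94 on the log2 scale in HGC-27 and 0.91 in AGS, and miR-17-5p fell by 0.89 and 0.93. miR-19a-3p, also of the miR-17 to miR-92a cluster, was called lower in AGS, at -0.96, and was not called in HGC-27. Names of 1 cluster are not independent entries in these counts. let-7b-5p fell by 0.60 in HGC-27 and was at -0.31 in AGS (adjusted p = 0.0689). miR-34a-5p, whose gene is activated by p53, fell by 0.63 and 0.73. miR-449a, which shares its seed with miR-34a, was near 0 with DMSO and rose from 3.46 ± 0.924 to 33.5 ± 4.75 CPM in HGC-27 and from 0.186 ± 0.322 to 13.1 ± 2.47 CPM in AGS.

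Of 10 further microRNAs reported to target MCL1 or KIT, all tested, 2 rose and 3 fell in HGC-27, and 2 rose and 1 fell in AGS, with medians of 0.05 and 0.07. Over all microRNAs 40.8% were called in HGC-27 and 26.5% in AGS, with medians of 0.08 in each. With plain totals 2 rose and 2 fell in HGC-27, and 3 rose and 0 fell in AGS. Calls over all microRNAs moved the same way with plain totals, fewer lower and more higher in each line. The most abundant, miR-221-3p and miR-222-3p, which repress KIT, fell by 0.21 and 0.44 in HGC-27 and were at 0.15 (adjusted p = 0.194) and 0.01 (adjusted p = 0.958) in AGS. miR-29a-3p, which represses MCL1, was at 0.19 (adjusted p = 0.233) and 0.13 (adjusted p = 0.487). miR-106a-5p fell by 0.83 and 0.86. miR-218-5p rose by 3.82 in HGC-27, from 37.6 ± 4.29 to 533 ± 590 CPM, a spread wider than its mean, and by 2.28 in AGS. miR-494-3p rose by 2.88 and 3.32.

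The microRNAs whose pattern over the 12 libraries was most like each arm were found by the root mean square difference of log2 CPM, each centred on its own mean. For miR-365a-5p these were miR-335-3p (0.18), miR-21-3p (0.19) and miR-7974 (0.19). The median was 0.82 over the microRNAs tested, with the miR-193 and miR-365 arms left out, as for each median below. miR-193b-3p was nearest to miR-106b-5p (0.15), miR-7-1-3p (0.21) and miR-32-3p (0.23), against a median of 0.68. miR-365-3p was nearest to miR-16-5p (0.17), miR-574-3p (0.19) and miR-15b-3p (0.21). miR-193a-5p was nearest to miR-1180-3p (0.13), miR-942-5p (0.14) and miR-15b-5p (0.17). miR-193b-5p was nearest to miR-335-3p (0.25), let-7f-1-3p (0.27) and miR-452-5p (0.27), and miR-193a-3p to miR-1278 (0.24), miR-1277-3p (0.24) and miR-548ar-3p (0.26). miR-365b-5p was nearest to miR-222-5p (0.45), miR-486-3p (0.49) and let-7c-3p (0.62), against a median of 1.28.

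Among the arms themselves, miR-193b-5p and miR-365a-5p, from the same locus, were nearest to each other (0.32), followed by miR-193a-5p with miR-193b-5p (0.35) and miR-193b-3p with miR-365a-5p (0.35). The arms of the miR-193b hairpin were 0.42 apart and those of the miR-193a hairpin 0.46. The chromosome 17 partners miR-193a-5p and miR-365b-5p were 1.01 apart. Each is a description over libraries that share depth and scaling within a library.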

How the data were processed

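The authors deposited whole-number tag counts per microRNA and hairpin for 12 small RNA libraries. They also deposited a table of rounded, CPM-like values (unit score; column sums 983286 to 991838), used for 1 alternative only. Per the submitters' processing notes, cutadapt (no version named) and Novoalign 2.07.11 were used. For the genome build, the microRNA database and the handling of reads matching several hairpins, the sources used here give no statement. Blanks were read as 0, and the smallest listed count was 2.

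Of 2909 entries, 2049 carried an annotated name and 860 predicted entries were left out. For 111 names with more than 1 hairpin, the hairpin with the highest total was kept. Counts were fitted in edgeR 4.0.16 (R 4.3.3) with TMM scaling (factors 0.863 to 1.17), filterByExpr over the 4 groups and 1 quasi-likelihood fit of all 12 libraries (8 residual degrees of freedom). P-values were adjusted by Benjamini-Hochberg over 608 microRNAs, and a call is an adjusted p under 0.05. Intervals are 95%, and levels are means ± SD of 3 libraries. Ratios of counts were tested by exact permutation within lines (scipy 1.17.1). The libraries carry no molecular identifiers in the sources used here, so precision at low counts is that of reads, not of molecules. Sequences came from RefSeq tables of GRCh38.p14, and gene overlap from GENCODE 29, which was not used for counting.

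The 8 members and the comparison lists were chosen with earlier results of these data known. Named microRNAs were all members, the 3 most abundant of each list and any called in both lines, and the 3 most alike per member. miR-19a-3p was named in addition, for its cluster. The alternatives were other scalings, DESeq2 1.42.0, other filters, predicted entries included, all hairpins kept, miR-365-3p counted once, limma 3.58.1 on the authors' table, the groups compared alone, a replicate block and each library left out. The scripts were tested on simulated data.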

Additional observations from a re-analysis of the deposited data

How the results depend on the processing

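miR-365a-5p was called lower in both lines under all 18 alternatives run, at -1.27 to -1.03 on the log2 scale in HGC-27 and -1.15 to -0.76 in AGS. miR-193b-5p (-1.11 to -0.69) and miR-365b-5p (-2.84 to -1.94) were called lower in HGC-27 under all 18. The number of the 8 names called in HGC-27, 3 as reported, was 5 with upper-quartile scaling and with predicted entries, 6 without a low-count filter and with the groups compared alone, 5 without the farthest library of each group (an alternative chosen after seeing the data), and 3 to 3 leaving out single libraries. In AGS, 2 as reported, it was 1 with plain totals and on the authors' table, 3 with DESeq2, 4 with predicted entries, 5 without the farthest libraries, and 1 (without AGS SAHA 2) to 5 (without AGS DMSO 2) leaving out single libraries. Under DMSO, 1 name as reported, it was 3 with plain totals, 0 without a filter, 4 with the stricter filter and on the authors' table, 3 with every hairpin kept, 2 with the groups alone, and 0 to 3 leaving out single libraries. Under SAHA, 5 as reported, it was 2 with predicted entries, 3 with the groups alone, 2 without the farthest libraries and 2 to 4 leaving out single libraries. Counts of 5 or 6 can include both entries of miR-365-3p. Calls over all microRNAs moved too, to between 163 and 355 in HGC-27 and 97 and 230 in AGS over the 18 alternatives. They were 228 to 432 under DMSO and 230 to 375 under SAHA. With the stricter filter 444 microRNAs were tested, and without a filter 1380. The share of all microRNAs called is not given here for each alternative. The member counts of the alternatives are therefore not read as a result about these arms. The cause of these moves was not tested.

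Over all microRNAs, 248 calls in HGC-27 (132 higher, 116 lower) became 163 to 210 leaving out single libraries, the lowest without HGC-27 DMSO 3, and 161 in AGS (91 higher, 70 lower) became 97 to 145, the lowest without AGS DMSO 1. With plain totals the splits were 144 higher and 79 lower in HGC-27 and 116 and 37 in AGS. The 271 calls under DMSO were 432 with predicted entries. The 11 interaction calls were 31 with DESeq2, 44 with predicted entries, 27 on the authors' table, 24 with every hairpin kept, 6 with the replicate block, 19 without the farthest libraries and 2 to 20 leaving out single libraries; no member was called in any of the 23 alternatives. Same-numbered replicates correlated at -0.32 to 0.50 in their deviations, over 0.1 in 7 of 18 pairs. Differently numbered libraries were not compared, so these values cannot decide whether the numbers mark a shared batch. The labels state no block, and the numbers were not taken as pairing in the main fit. With the replicate block 218 microRNAs were called in HGC-27, 147 in AGS, 264 under DMSO and 250 under SAHA. Among the 8 names the block changed 4 calls: miR-193b-5p was called in AGS (adjusted p = 0.04) and under DMSO (0.0186), and miR-193a-3p was not called under DMSO (0.0525) or SAHA (0.0518).

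Leaving out single libraries moved the miR-193a arm ratio between 0.31 and 0.66 and the miR-365a-5p to miR-365b-5p ratio between 0.46 and 1.11 on the log2 scale, and the miR-193b arm ratio was 0.50 in HGC-27 and -0.16 in AGS alone. A ratio test within a single line, 3 libraries against 3, cannot go below an exact p of 0.1, so single-line values carry no test. In the MCL1 or KIT list, 0 rather than 1 fell in AGS with plain totals. Depth limits miR-365b-5p most, at 2 to 82 counts per library.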
